A study of Rattus norvegicus with 8 samples.

Results

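The receptors of bone morphogenetic proteins (BMPs) and the SMAD proteins that carry their signal are described here in the substantia nigra (SN) of rats that overexpressed human α-synuclein (αSyn). The members are the 10 genes Bmpr1a, Bmpr1b, Bmpr2, Acvr1, Smad1, Smad4, Smad5, Smad6, Smad7 and Smad9, of 16678 genes that could be named on the array. They were taken as every probe, other than controls, whose RefSeq transcript maps to one of these symbols, which gave 16 probes. All animals were female Sprague Dawley rats, 3 months old at surgery, which received a unilateral stereotaxic injection of an adeno-associated virus of serotype AAV6 into the SN. The AAV-αSyn group received a vector carrying wild-type human αSyn at 5.2e10 vector genomes per µL, and the AAV-Null group a null vector at 5.3e9 vector genomes per µL, so that the titre differed with the transgene. Tissue came from the injected side 20 weeks after surgery, with 4 arrays in each group and a different sample on each. The transgene was not checked on these arrays, because whether a rat probe reads the human transcript is not given in the sources used here.

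BMP ligands bind a complex of type I and type II receptor kinases. The type II receptor phosphorylates the type I receptor, which phosphorylates the receptor-regulated SMADs. These pair with the common SMAD, enter the nucleus and switch on target genes such as the Id genes, while the inhibitory SMADs act back on the receptors as a brake. In the midbrain, ligands of this family are known as neurotrophic factors for dopaminergic neurons, and the same receptors and SMADs are used by glial and vascular cells.

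All 8 arrays lay on 1 slide, and the share of spots well above background was 74.8% to 77.5% per array. The dopaminergic neuron markers that define the labelled tissue were well above background on all 8 arrays, and 7 of 7 tested had a lower mean in the AAV-αSyn group. For 5 of them the unadjusted p was under 0.05, and for 0 the adjusted p. Th, the gene of tyrosine hydroxylase, differed by −0.52 on the log2 scale (standard error (SE) 0.0958) with an adjusted p of 0.484 by limma. The summed level of this list, as the mean deviation of log2 intensity from the 8-array mean, ran from 0.07 to 0.46 in the AAV-Null arrays and from −0.38 to −0.05 in the AAV-αSyn arrays. In bulk tissue, fewer cells of a type and less RNA per cell cannot be told apart. Markers of the neighbouring raphe were also uneven, from −1.12 to 0.66 in the AAV-Null arrays and from 0.07 to 0.95 in the AAV-αSyn arrays, and those of the thalamus and diencephalon from −0.10 to 0.71 and from −0.94 to 0.16. Of each list, up to 2 genes with the smallest unadjusted p under 0.05 are named. Besides Th, they were the dopamine receptor gene Drd2 (−0.33), the serotonergic genes Tph2 (2.35) and Slc6a4 (2.30) and the thalamic gene Gbx2 (−2.001). Among neurons in general it was the synaptic gene Syt1 (−0.40). For none was the adjusted p under 0.05. Gbx2 rested on AAV-αSyn 4 (5.71, against 8.69 to 9.89 on the other AAV-αSyn arrays), and the difference in means without it was −1.09. The raphe level of 0.66 was that of AAV-Null 3, and the other AAV-Null arrays ran from −1.12 to −0.72. On AAV-Null 3, Tph2 (10.61, against 8.12 to 8.99) and Slc6a4 (8.91, against 5.48 to 6.34) lay among the AAV-αSyn values. Means were higher for 2 and lower for 3 of the 5 thalamic and diencephalic markers, higher for 2 and lower for 4 of the 6 pan-neuronal markers, and higher for 5 and lower for 1 of the 6 raphe markers, where the lower one, Slc18a2, is also on the dopaminergic list. The part of these tissue differences in the values of the receptors and SMADs was not tested.

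Every one of the 10 genes was measured on every array, and no difference between the groups passed the test. All 16 probes were well above background on all 8 arrays, which held for 65.0% of the 45598 probes of the array. None of the 16 probes had an adjusted p under 0.05, a level that 0.0148% of the 33853 probes tested reached, and the smallest adjusted p among them was 0.947 (limma). None had an unadjusted p under 0.05 either, against 5.64% of all probes tested. For none did the 4 arrays of one group lie wholly above or below the 4 of the other, against 3.83% of all probes tested. Across the brightest probe of each gene, which stands for the gene below, the median log2 fold change (AAV-αSyn minus AAV-Null) was 0.07, and over all probes tested it was 0.01. The brightest probe had a higher mean in the AAV-αSyn group for 10 of 10 genes, against 52.4% of all probes tested. This count was 5 of 10 when the array AAV-Null 4 was left out. Over all 16 probes, 11 had a higher and 5 a lower mean. The 95% confidence intervals of the 10 genes spanned 0, and their bounds reached from 0.580-fold to 1.78-fold.

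**Figure D1:**
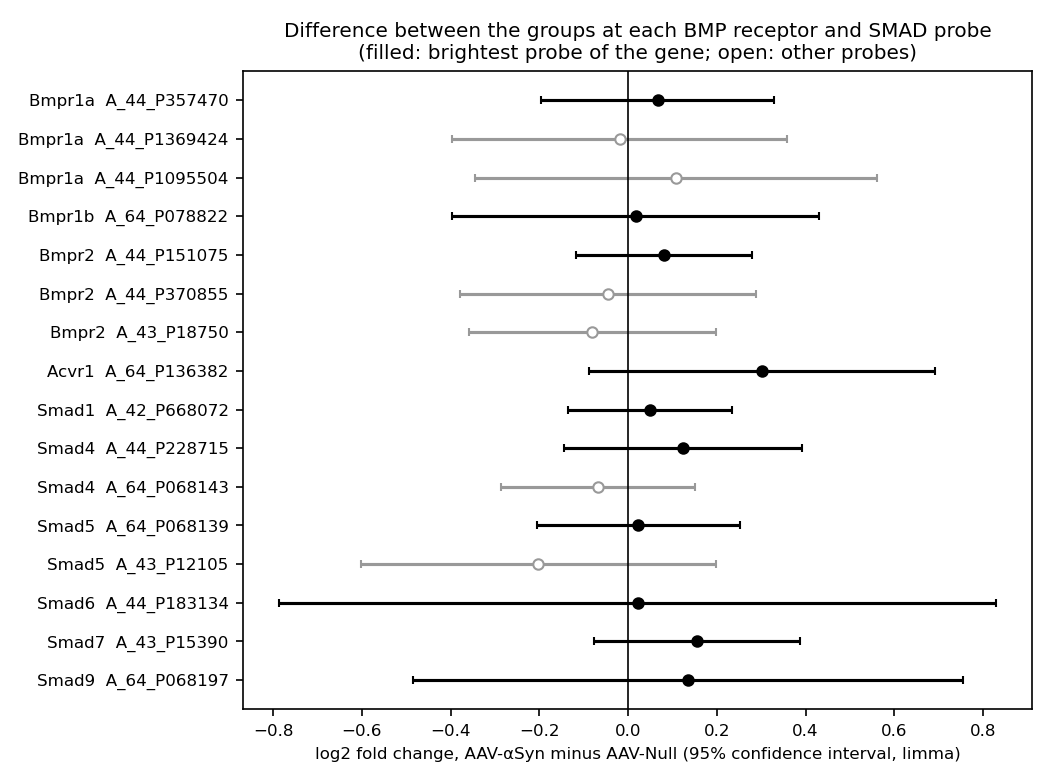
Log2 fold change (AAV-αSyn minus AAV-Null) of each of the 16 probes with its 95% confidence interval from limma (4 arrays per group). Filled points are the brightest probe of a gene and open points its other probes. Every interval includes 0, with Acvr1 farthest to the right at 0.30 and Smad6 widest, from −0.79 to 0.83.

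Among the type I receptors, Acvr1, also known as ALK2, had the largest difference of the 10 genes. Its probe A_64_P136382 had log2 intensities of 6.54, 6.60, 6.93 and 6.48 on AAV-Null arrays 1 to 4 and of 6.62, 7.36, 6.96 and 6.82 on AAV-αSyn arrays 1 to 4. The groups overlapped, with AAV-Null 3 among the AAV-αSyn values and AAV-αSyn 1 among the AAV-Null values, and AAV-αSyn 2 stood highest. The log2 fold change was 0.30 (SE 0.170; 95% confidence interval −0.09 to 0.69), or 1.23-fold, and the exact permutation test gave p = 0.143 (two-sided), where 0.0286 is the smallest p that 4 arrays against 4 allow. The adjusted p was 0.947 (limma), and 11.7% of all probes tested had a larger absolute log2 fold change. With a normexp background correction the difference was 0.15 (SE 0.0936).

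Bmpr1a, or ALK3, the most widely expressed BMP type I receptor, differed by 0.07 (SE 0.114; interval −0.20 to 0.33). Its brightest probe, A_44_P357470, read 10.49, 10.37, 10.25 and 10.04 in the AAV-Null arrays and 10.35, 10.50, 10.37 and 10.19 in the AAV-αSyn arrays. The AAV-αSyn values lay within a narrower span that overlapped the AAV-Null values, and the lowest value was that of AAV-Null 4. The other probes of the gene, A_44_P1369424 and A_44_P1095504, differed by −0.02 (SE 0.164) and 0.11 (SE 0.197). The 3 probes thus gave differences on either side of 0, each smaller than its standard error. Bmpr1b, or ALK6, a type I receptor with a narrower expression, read 9.41, 9.00, 8.88 and 8.62 in the AAV-Null arrays and 9.31, 8.85, 8.97 and 8.84 in the AAV-αSyn arrays (probe A_64_P078822). Replicate 1 was highest in both groups, and the AAV-αSyn values lay inside the range of the AAV-Null values. The difference was 0.02 (SE 0.180; interval −0.40 to 0.43), and 89.9% of all probes tested had a larger one.

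Bmpr2, the type II receptor kinase that phosphorylates the type I receptors, had 3 probes, and they disagreed in direction. The brightest, A_44_P151075, read 10.42, 10.39, 10.46 and 10.67 in the AAV-Null arrays and 10.46, 10.60, 10.54 and 10.65 in the AAV-αSyn arrays. Here AAV-Null 4 was the highest of all 8 arrays, the opposite of its place for Bmpr1a, Bmpr1b and Acvr1. The difference was 0.08 (SE 0.0863; interval −0.12 to 0.28). Probe A_44_P370855 differed by −0.05 (SE 0.145) and A_43_P18750 by −0.08 (SE 0.121). On both of these, AAV-αSyn 2 was the lowest and AAV-αSyn 4 the highest of all 8 arrays, at 10.14 and 10.82 for A_44_P370855 and at 9.60 and 10.15 for A_43_P18750. Both match a curated transcript of the gene, while the brightest probe is listed under a predicted one. The mean over the 3 probes differed by −0.02.

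**Figure D2:**
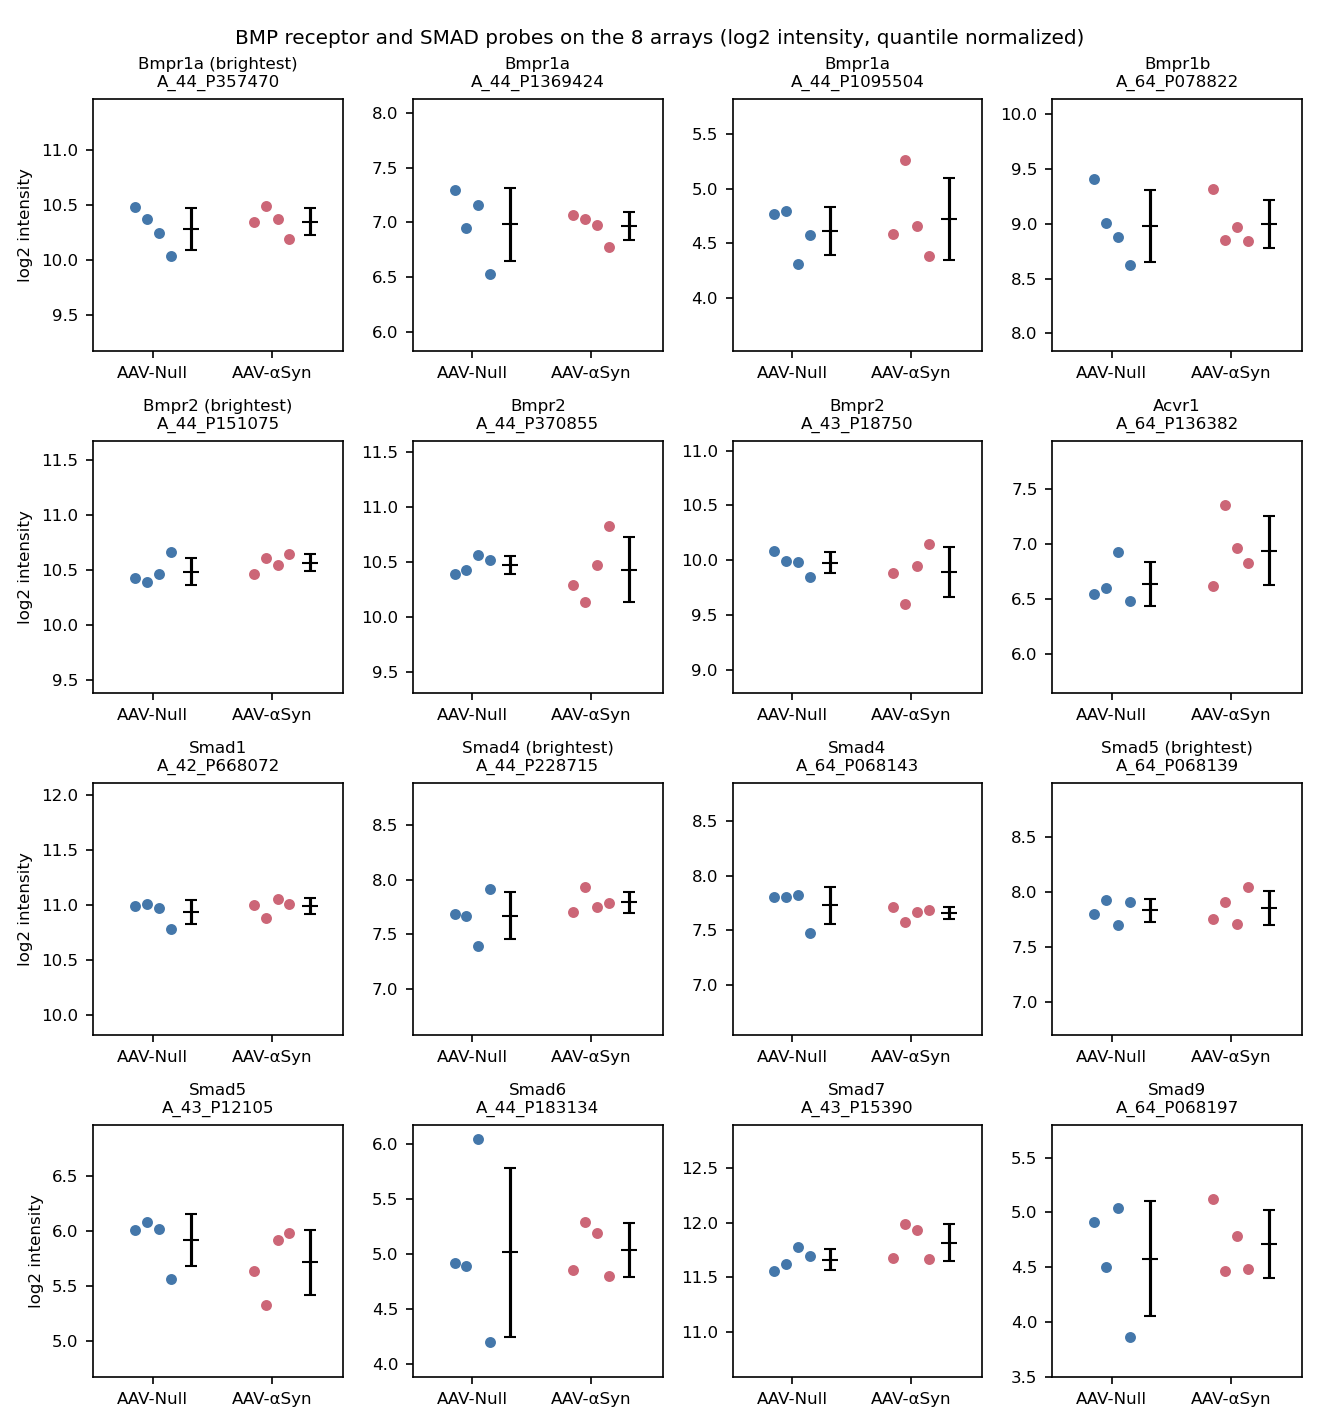
Quantile-normalized log2 intensity of the 16 probes on the AAV-Null (blue) and AAV-αSyn (red) arrays, with points in the order of replicates 1 to 4 and bars for the mean ± SD (n = 4). The vertical axes start at different levels and cover the same number of log2 units. The groups overlap in every panel, Smad6 and Smad9 have the widest spread among AAV-Null arrays, and Smad1 has a narrow one.

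The receptor-regulated SMADs of the BMP branch are Smad1, Smad5 and Smad9. Smad1 was among the most tightly measured of the 10 genes, at 10.99, 11.01, 10.97 and 10.78 in the AAV-Null arrays and 11.00, 10.88, 11.06 and 11.01 in the AAV-αSyn arrays (probe A_42_P668072). The low value of AAV-Null 4 stood apart from the other AAV-Null values. The difference was 0.05 (SE 0.0805), with an interval of 0.910-fold to 1.18-fold that is the narrowest of the 10 genes. Smad5 read 7.80, 7.93, 7.70 and 7.91 in the AAV-Null arrays and 7.75, 7.91, 7.71 and 8.05 in the AAV-αSyn arrays on its brightest probe, A_64_P068139. The values of the groups were interleaved, and the difference was 0.02 (SE 0.0996; interval −0.21 to 0.25). Its other probe, A_43_P12105, differed by −0.20 (SE 0.174; interval −0.60 to 0.20), with 5.33 on AAV-αSyn 2 and 5.56 on AAV-Null 4 at the low end. Smad9, also called Smad8, read 4.91, 4.50, 5.04 and 3.87 in the AAV-Null arrays and 5.12, 4.46, 4.79 and 4.49 in the AAV-αSyn arrays (probe A_64_P068197). It was dimmest on AAV-Null 4 and spread over more than 1 log2 unit among the AAV-Null arrays, and its difference of 0.14 (SE 0.269) had an interval of −0.48 to 0.75. With a normexp background correction that difference was 0.02 (SE 0.101).

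Smad4, the common partner shared by the BMP and TGF-β branches, had 2 probes with differences of opposite sign. The brightest, A_44_P228715, read 7.69, 7.67, 7.39 and 7.92 in the AAV-Null arrays and 7.71, 7.93, 7.75 and 7.78 in the AAV-αSyn arrays, a difference of 0.12 (SE 0.116; interval −0.14 to 0.39). All 4 AAV-αSyn values were above 3 of the AAV-Null values, and AAV-Null 4 overlapped them. Probe A_64_P068143 read 7.81, 7.80, 7.82 and 7.48 in the AAV-Null arrays and 7.71, 7.58, 7.67 and 7.68 in the AAV-αSyn arrays, a difference of −0.07 (SE 0.0951). AAV-Null 4 was thus near the top of one probe and the lowest of the other. No direction can be given for Smad4 from these probes.

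The inhibitory SMADs are Smad6, which acts mainly on BMP receptors, and Smad7, which acts on both BMP and TGF-β receptors. Smad7 is itself induced by BMP-SMAD signalling, so that it is a readout of the pathway as well as a member of it, and its promoter is shown for that reason. The 300 bases from 250 before to 50 after the transcription start of rat Smad7 (RefSeq, GRCr8, chr18:71263258-71263557, + strand) are given 5′ to 3′, with each GGCGCC, the GC-rich SMAD-binding motif, in capitals.
Smad7: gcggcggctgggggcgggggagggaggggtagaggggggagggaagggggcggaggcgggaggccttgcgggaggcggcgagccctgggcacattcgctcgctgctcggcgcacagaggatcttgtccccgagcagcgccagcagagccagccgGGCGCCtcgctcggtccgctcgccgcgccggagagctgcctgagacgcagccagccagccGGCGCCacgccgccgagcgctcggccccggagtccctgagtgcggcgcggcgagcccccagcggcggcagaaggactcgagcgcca
The motif, which reads the same on both strands, occurred 2 times in this window. It was present in 2 of the 7 members with a promoter in the RefSeq table (Smad7 and Smad9) and in 11.0% of 33469 rat promoters of the same length. The shorter CAGAC motif, searched on both strands, was present in Smad9 only among the 7 and in 50.1% of all promoters. A match of letters is a description and does not show binding. The windows rest on the transcript starts of that table, which were not checked, so that some may not hold a promoter. Bmpr1b, Acvr1 and Smad6 have no entry in that table.

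Smad7 read 11.56, 11.62, 11.78 and 11.69 in the AAV-Null arrays and 11.68, 11.99, 11.93 and 11.67 in the AAV-αSyn arrays (probe A_43_P15390). AAV-αSyn 2 and 3 stood above every AAV-Null array, and AAV-αSyn 1 and 4 lay among the AAV-Null values. The difference was 0.15 (SE 0.101; interval −0.08 to 0.39), or 1.11-fold, with p = 0.200 by the exact permutation test and an adjusted p of 0.961 by limma. After that of Acvr1 it was the largest difference of the 10 genes, and 31.4% of all probes tested had a larger one. Smad6 read 4.92, 4.89, 6.05 and 4.20 in the AAV-Null arrays and 4.86, 5.30, 5.19 and 4.80 in the AAV-αSyn arrays (probe A_44_P183134). Its highest and lowest values were both in the AAV-Null group, on AAV-Null 3 and AAV-Null 4. Its difference was 0.02 (SE 0.351), and its interval of 0.580-fold to 1.78-fold was the widest of the 10 genes.

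Single arrays stood out across the members. AAV-Null 4 was the lowest of the 8 arrays for 8 of the 16 probes and 6 of the 10 brightest probes, while it was the lowest for 15.7% of all probes compared. Its mean deviation over the 16 probes was −0.21 log2 units, and the other 7 arrays lay between −0.01 and 0.07. The same array was also the lowest for astrocyte (−0.37), oligodendrocyte (−0.25), pan-neuronal (−0.15) and blood cell markers (−0.76), and for microglial markers (−0.18) it was next to the lowest, AAV-αSyn 4 (−0.19). The part of these cell types in the low values was not tested. Without AAV-Null 4, the differences of Bmpr1a, Bmpr1b, Smad1, Smad6 and Smad9 were −0.02, −0.10, −0.0040, −0.25 and −0.10, and those of Bmpr2 and Smad4 were 0.14 and 0.21 with groups that no longer overlapped, as held without that array for 10.5% of all probes tested. AAV-αSyn 2 was the highest array for 4 of the 10 brightest probes, against 10.0% of all probes compared, and the difference of Acvr1 without it was 0.16. None of the astrocyte, oligodendrocyte, microglial, endothelial and mural or blood cell markers had an unadjusted p under 0.05 between the groups.

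**Figure D3:**
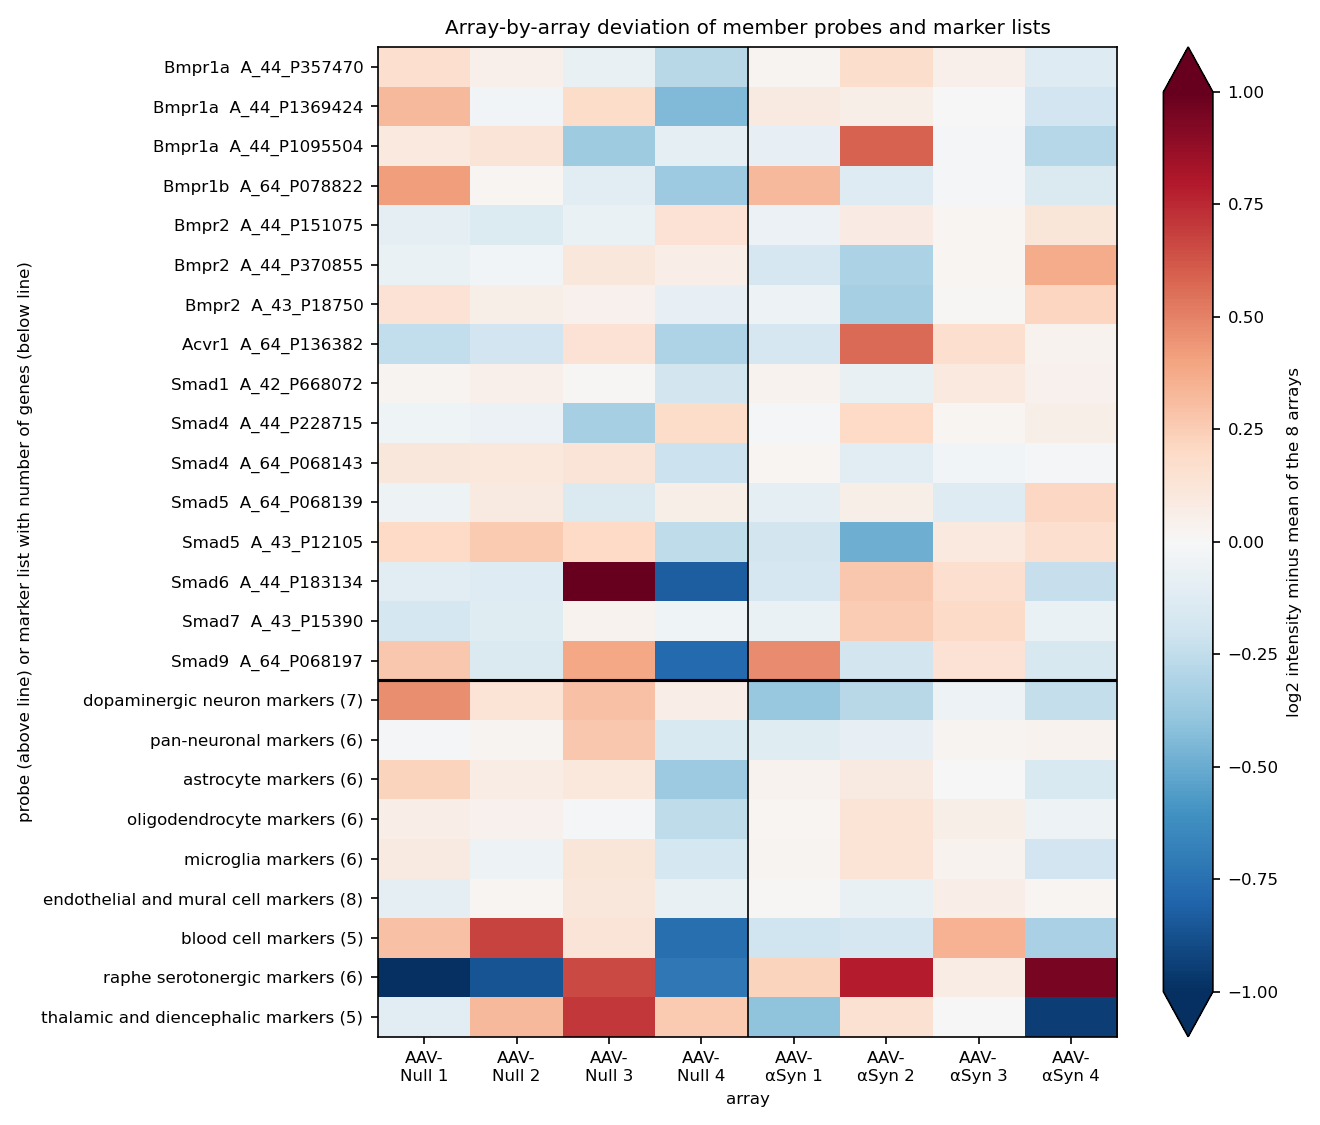
Deviation of log2 intensity from the mean of the 8 arrays for each of the 16 probes (above the line) and for the mean of each marker list (below it, with the number of genes), array by array. Colours end at −1 and 1, beyond which values share the end colour. The column of AAV-Null 4 is mostly blue (mean of the 16 probes −0.21), and the dopaminergic list changes from red to blue between the groups.

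The genes around the members were read from 6 lists of 95 genes in all, of which 77 were tested. A p under 0.05 before adjustment was found for 3 of the 77, all higher in the AAV-αSyn group, against 5.64% of all probes tested, and an adjusted p under 0.05 for 0. The groups of arrays did not overlap for 6 of the 77, against 3.83%. The median log2 fold change over the 77 genes was 0.01, as over all probes tested.

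Of 14 secreted BMP antagonists tested, 7 had a higher and 7 a lower mean, and 1 passed the unadjusted threshold. This was Sostdc1, which encodes a secreted protein that binds BMPs and also acts on Wnt signalling. It read 5.74, 5.57, 5.01 and 6.37 in the AAV-Null arrays and 6.95, 7.04, 6.88 and 7.34 in the AAV-αSyn arrays. The groups did not overlap, with all 4 AAV-αSyn values on top. Its log2 fold change was 1.38 (SE 0.264), with p = 0.0286 by the exact permutation test and an adjusted p of 0.484 by limma.

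Of the 12 other receptors and SMADs of the TGF-β superfamily, 8 had a higher mean and 2 passed the unadjusted threshold. Tgfbr3, the co-receptor betaglycan, was 3.94 ± 0.10 (SD, n = 4) in AAV-Null and 4.32 ± 0.14 (SD, n = 4) in AAV-αSyn arrays, and its adjusted p was 0.605 (limma). Tgfbr2, the type II receptor for TGF-β, was 10.15 ± 0.16 (SD, n = 4) and 10.39 ± 0.084 (SD, n = 4), and its adjusted p was 0.850 (limma). The groups of arrays did not overlap for either gene, whose log2 fold changes were 0.37 and 0.24. Tgfbr3 was dim, and on AAV-Null 4 it read 3.81, near that array's lowest log2 intensity above background (3.48).

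None of the 11 BMP and GDF ligands tested passed the unadjusted threshold, with 4 higher, 7 lower and a median of −0.06. None of 3 co-receptors and 24 genes of SMAD turnover and nuclear partners passed it either. Skor1, a corepressor of the SKI family that binds SMADs, has no probe that the table names and was not analysed here. Of the 13 target genes of BMP-SMAD signalling, 7 had a higher and 6 a lower mean, with a median of 0.00 and none past the unadjusted threshold. The Id genes, which encode inhibitors of differentiation and are the usual transcriptional readout of BMP signalling, were singled out after their values were seen. Id1 differed by −0.10 (SE 0.0962), Id2 by −0.12 (SE 0.144), Id3 by −0.05 (SE 0.226) and Id4 by 0.00 (SE 0.104). All 4 confidence intervals spanned 0, and those of Id1 and Id4 were −0.32 to 0.12 and −0.24 to 0.24. AAV-Null 3 was the lowest AAV-Null array for Id1 (9.63), Id3 (5.72) and Id4 (10.87, against 11.15 to 11.17), and the highest for Id2 (12.19). The differences of the Id genes without that array were not computed.

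**Figure D4:**
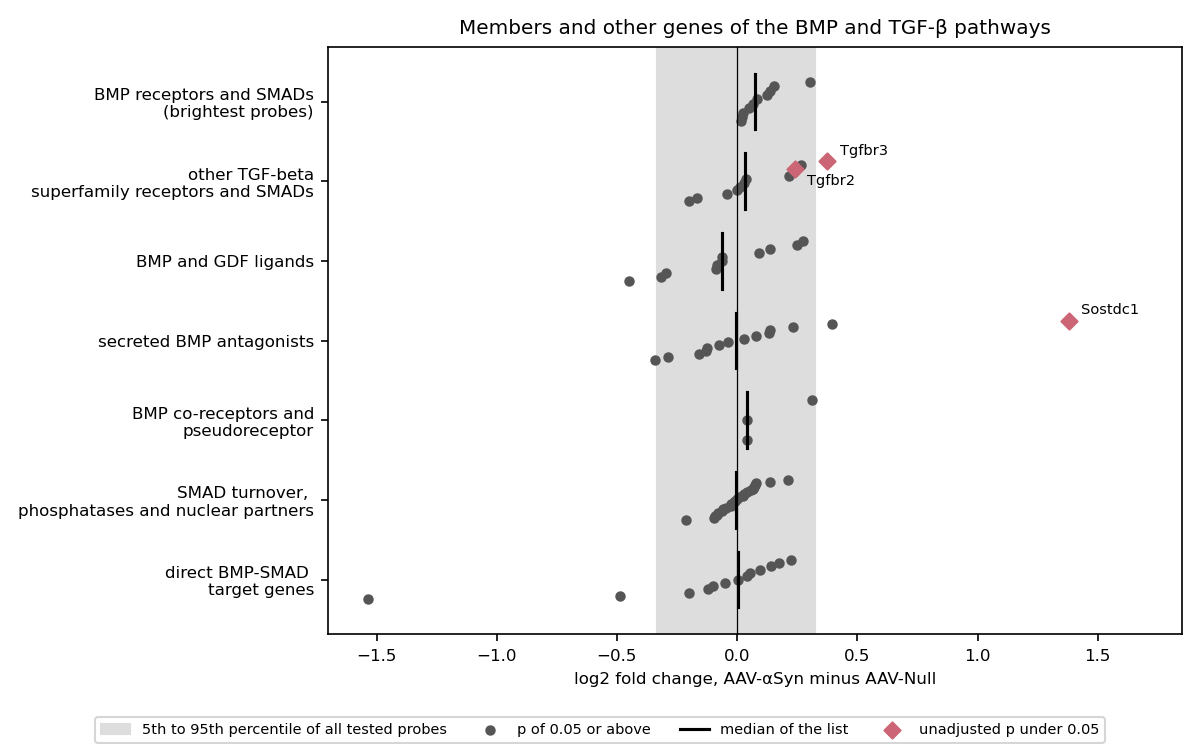
Log2 fold change (AAV-αSyn minus AAV-Null) of the 10 members and of the tested genes of the 6 pathway lists, 1 point per gene, with the median of each list as a bar and the 5th to 95th percentile of all probes tested shaded (−0.33 to 0.32). All 10 members lie inside the shaded band, and Sostdc1 at 1.38 lies farthest to the right. The point farthest to the left is Dlx5, which was above background on 3 of 4 AAV-Null and 1 of 4 AAV-αSyn arrays, so that its place is only a rough one.

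For 3 genes, Acvr1, Smad4 and Smad7, the mean was higher in the AAV-αSyn group under every setting tried, and none of these values had an adjusted p under 0.05. Over 14 processing alternatives and 8 arrays left out in turn, Acvr1 ran from 0.15 to 0.41, Smad4 from 0.03 to 0.21 and Smad7 from 0.10 to 0.22. The lowest adjusted p of any member under any setting was 0.295. For Smad4 the steadiness is that of its brightest probe, since the other probe differed the other way. When arrays were weighted by their quality, Acvr1 (0.40) and Smad7 (0.22) had unadjusted p-values of 0.0243 and 0.0346 by limma, in a fit that gave 4607 of all probes tested such a p in place of 1908.

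**Figure D5:**
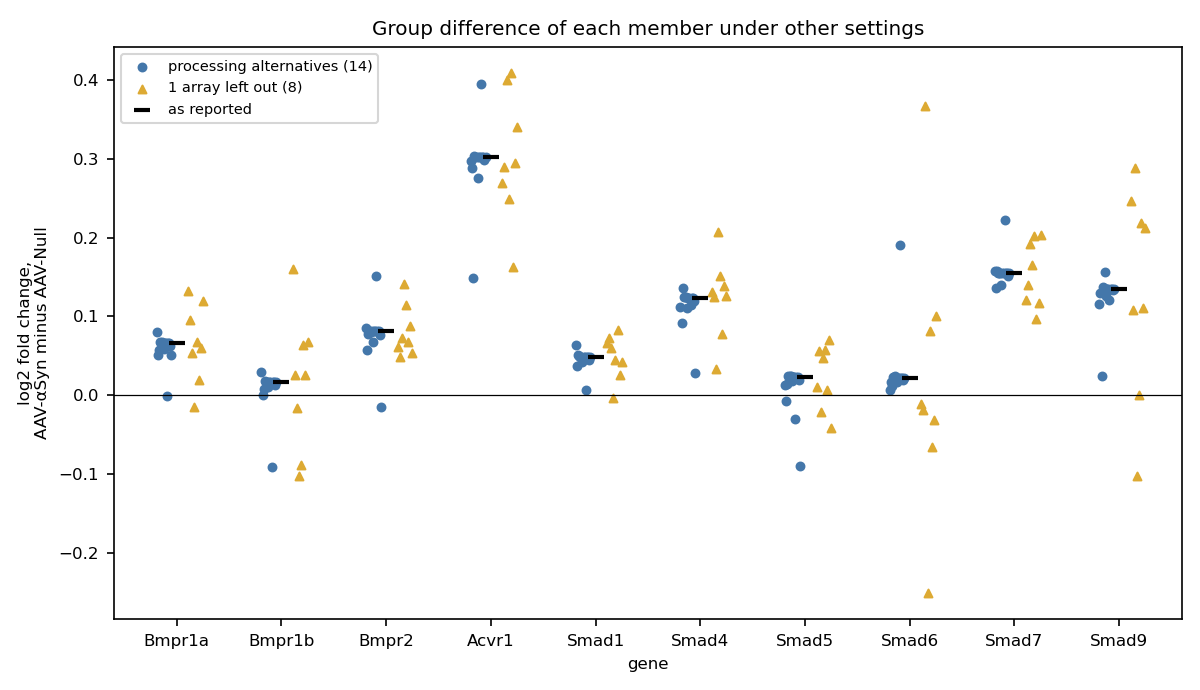
Log2 fold change (AAV-αSyn minus AAV-Null) of the 10 members as reported (black bars), under 14 processing alternatives (blue circles) and with 1 array left out (yellow triangles). Acvr1, Smad4 and Smad7 stay above 0 throughout. Smad6 moves most, from −0.25 to 0.37.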

How the data were processed

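Each of 8 RNA samples was hybridised to its own Agilent array in 1 colour (Cy3). The authors deposited scanner files with the processed intensity of each spot after background correction by Feature Extraction (11.5.1.1 per the labels, 12.0.3.2 per the file headers), and a quantile-normalized matrix on the log2 scale, whose ranks matched the processed intensity on every array. Here control and outlier spots were dropped, the processed intensity was log2 transformed and quantile normalized, and repeated spots of a probe were averaged. The 33853 probes called above background (in a share of 0.5 or more of their spots) on 1 array or more were tested, and 11745 were not. The number of arrays limits the precision.

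The groups were compared with lmFit and eBayes of limma 3.58.1 in R 4.3.3, two-sided, with Benjamini–Hochberg adjustment over all probes tested and a threshold of 0.05. A gene was represented by its probe of the highest mean over all 8 arrays. Exact permutation tests used all splits into 4 and 4 arrays. The methods give fewer arrays per group than the 4 deposited, and the labels number them as replicates without naming animals, so that p-values measure the spread between these samples. Probes were named through RefSeq accessions of GRCr8 (21229 of 45598 probes), and no array position is given because the files name no assembly. The named genes are every member, up to 3 genes of each pathway list and up to 2 of each marker list with the smallest unadjusted p under 0.05, and Th. The Id genes, Dlx5, Zfyve16, Tob1 and Slc18a2 fall outside this rule and were named after their values were seen. The members and lists were chosen with earlier results of these data known. Marker lists covered dopaminergic neurons, neurons in general, astrocytes, oligodendrocytes, microglia, endothelial and mural cells, blood, raphe and thalamus. The procedure was tested on simulated data. Results of 1 marker gene are left out.

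The alternatives were scaling to the 75th percentile, cyclic loess, normexp (offset 50), no filter, filters at 4 and 8 arrays, the deposited matrix, a variance trend, robust variance, array weights, the replicate number or slide side as a block, outlier spots kept, the mean over a gene's probes, and each array left out. Some values without each array were added after seeing the data. They are the difference in means of the named list genes with an unadjusted p under 0.05, and the shares of all probes called.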

Additional observations from a re-analysis of the deposited data

Results flagged for a closer look

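In a group of 4 arrays, 1 array was taken to stand apart when its gap to the nearest other array, divided by the group's range, was above Dixon's critical value. Of 88 groups examined, 7 had such an array. Chance flags about 1 in 20, or 4.4 of 88, where groups are independent and not chosen by their values. Some of these groups were chosen by their values and all share the same arrays, so that 7 cannot be tested against 4.4. The groups were those of the 16 member probes, of the 9 marker list scores, of the Id genes and of the list genes with an unadjusted p under 0.05 or without overlap. For 3 member probes it was AAV-Null 4. Smad1 read 10.78 there and 10.97 to 11.01 on the other AAV-Null arrays, a gap of 0.832 of the range. Smad4 on probe A_64_P068143 read 7.48 against 7.80 to 7.82, a gap of 0.941. Smad5 on probe A_43_P12105 read 5.56 against 6.01 to 6.08, a gap of 0.868.

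For the other 4 it was AAV-Null 3, which was low each time. The gaps were 0.930 for Zfyve16, 0.872 for Tob1, 0.933 for Id4 and 0.916 for Tgfbr2. Tgfbr2 read 9.92 on that array and 10.21 to 10.24 on the other AAV-Null arrays. AAV-Null 3 was the lowest of the 8 arrays for 28.1% and the highest for 25.8% of all probes compared.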

How the results depend on the processing

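No member had an adjusted p under 0.05 in any of the 14 processing alternatives or with any of the 8 arrays left out. Of 140 member values under the alternatives, 6 changed sign. They were Smad5 under cyclic loess (−0.0076), Bmpr1a (−0.00079), Bmpr1b (−0.0905) and Smad5 (−0.0306) under array weights, and Bmpr2 (−0.0150) and Smad5 (−0.0896) under the mean over a gene's probes. Array weights gave 2 members an unadjusted p under 0.05 in place of 0. With 1 array left out, 14 of 80 values changed sign. The ranges were −0.0151 to 0.133 for Bmpr1a, −0.102 to 0.161 for Bmpr1b, −0.0040 to 0.0830 for Smad1, −0.0417 to 0.0707 for Smad5, −0.25 to 0.37 for Smad6 and −0.10 to 0.29 for Smad9. Between 0 and 1 member then had an unadjusted p under 0.05 (Acvr1 without AAV-Null 3 or without AAV-αSyn 1, where 2746 and 1691 of the 33853 probes tested had one, in place of 1908), between 0 and 2 had groups that did not overlap (Acvr1 without AAV-Null 3, Bmpr2 and Smad4 without AAV-Null 4, where this held for 9.29% and 10.5% of all probes tested), and between 5 and 9 had a higher mean in the AAV-αSyn group. Apart from the array left out, the cause was not tested.

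With the replicate number as a block (replicate block), 0 members had an unadjusted p under 0.05, Acvr1 was 0.30 (SE 0.146) and 0 probes of the array had an adjusted p under 0.05 in place of 5. The replicate number was also the row of the array on the slide, so that this block stands for both. Under it the SE of Bmpr1b was 0.0941 in place of 0.180 and that of Smad9 0.159 in place of 0.269. The SE of Smad1 was 0.0879 in place of 0.0805. Same-numbered arrays deviated with correlations of 0.14, 0.27, 0.04 and −0.0022 over all probes, and 2 of 4 matched their own number best, so the numbers were not taken as pairs. All member probes were above background on every array, but the normexp background correction moved 5 of the 10 genes by over 1.5 times, with Acvr1 at 0.15 (SE 0.0936), Bmpr1b at 0.0076, Smad5 at 0.01, Smad6 at 0.01 (SE 0.121) and Smad9 at 0.02 (SE 0.101). Smad9 on AAV-Null 4 (3.87) was near that array's lowest log2 intensity above background (3.48).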
